A study of Mus musculus with 33 samples.

Results

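Microglia of the cerebellum (Cb) were compared between postnatal day (P)7 and P10. These were 7 of the 33 libraries of a bulk RNA sequencing study of mouse microglia, chosen by the region and age in their labels and by no measured value. At P7 there were 3 Cb libraries (2 from male mice, 1 from a female) and at P10 there were 4 (2 from each sex). The labels give no strain or genotype, and the study's methods name wild-type C57BL/6J mice and a Cx3cr1 GFP/WT reporter line without saying which was sorted. The mice were not treated and were perfused before the cells were sorted as CD45+, CD11b+ and Gr1-. The other libraries came from the same kind of cells of the corpus callosum (CC) and cortex (Cx) at P7 and P10, with the same numbers of libraries as the Cb, and from all regions at P42 (4 libraries per region). No source used here states whether 1 library was 1 animal, so that the spread between libraries may in part be technical.

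Microglia are the resident macrophages of the brain. In the first postnatal days many of those in developing white matter are amoeboid, engulf cells and debris, and carry transcripts such as Spp1, Gpnmb, Clec7a and Igf1, a profile that overlaps with the one microglia take on near amyloid or degenerating neurons. Later, ramified microglia carry the homeostatic genes, among them P2ry12, Tmem119 and Sall1, whose expression depends on transforming growth factor beta (TGF-β). The comparison asks which of these programmes changed in the Cb while its white matter develops.

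From P7 to P10 Spp1, Gpnmb, Lgals1, Igf1 and other genes of the amoeboid profile fell, and Selplg, Upk1b, Tmem119 and other homeostatic genes rose. Expression is given as CPM, the read count of a gene scaled to a common library size with edgeR's TMM factors. A gene was called when its adjusted p was 0.01 or less in edgeR's quasi-likelihood test and its log2 fold change was at least 1 in size. Of the 20917 genes tested, 49 were called (0.234%), 13 of them higher (0.0622%) and 36 lower (0.172%) at P10. "Rose" and "fell" are used below for every gene at an adjusted p of 0.01 or less, with or without the fold limit. That limit on p alone was passed by 288 genes (1.38%), of which 105 rose (0.502%) and 183 fell (0.875%). The median log2 fold change of all genes was -0.03. The 3 libraries of P7 and the 4 of P10 did not overlap for all of the 49 called genes, as for 3325 of all genes tested (15.9%). The number of calls depended on single libraries, with 21 calls without P7 replicate 2, 30 without P7 replicate 3 and 27 without P10 replicate 4, and on the tool, with 189 by limma-voom and 131 by DESeq2.

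**Figure D1:**
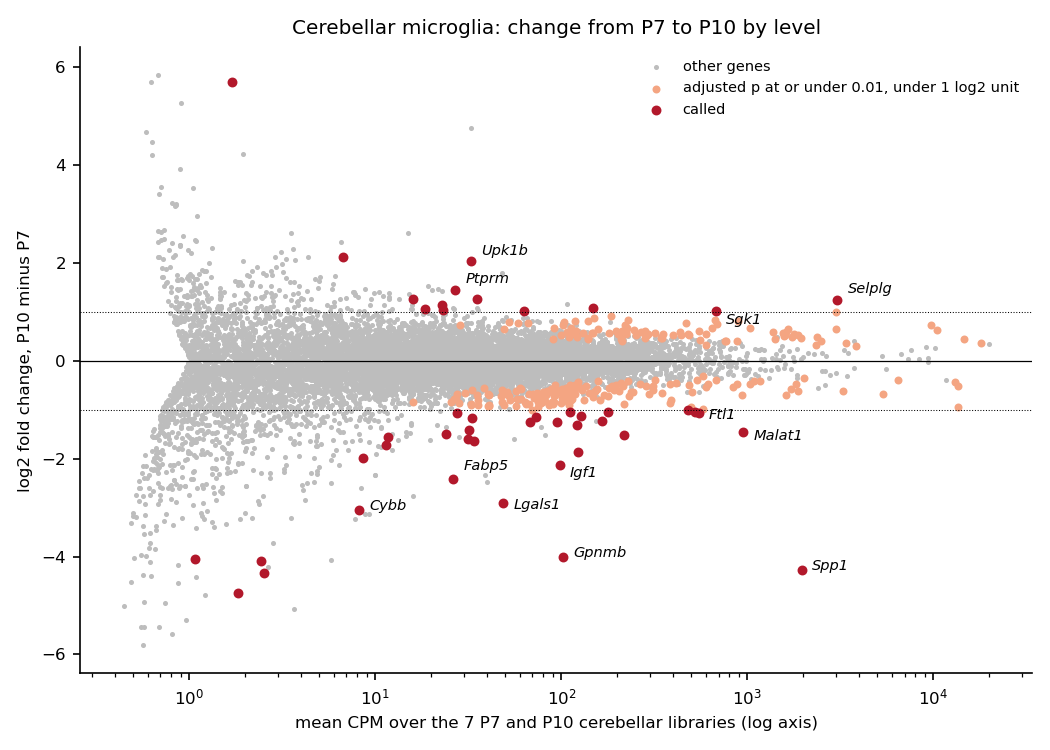
Log2 fold change from P7 to P10 in cerebellar microglia (vertical axis, P10 minus P7) against the mean CPM of the 7 libraries (horizontal log axis); grey, genes over an adjusted p of 0.01; orange, genes at or under it with a smaller change; red, called genes; dotted lines mark 1 log2 unit. Genes with at least 1 CPM at P7 or P10 and a change of at most 6 log2 units are shown. The called genes with the largest decreases at a high level were Spp1 and Gpnmb, and Selplg was the called gene with the highest level among those that rose.

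The 7 libraries held between 34745241 and 58065163 reads counted on genes, so that 1 read was worth 0.0174 to 0.0291 CPM. Genes that mark microglia and myeloid cells summed to 74920 to 77970 CPM at P7 and 91090 to 96080 CPM at P10, as the label would have it. The number of genes with at least 1 read was 18714 to 20626 at P7 and 17854 to 18337 at P10, and transcripts of the mitochondrial genome took 1.03 to 1.38% and 0.839 to 0.879% of the reads. Sex-linked transcripts matched the labelled sex in 7 of 7 libraries. Xist, which is made from the inactive X chromosome, was nevertheless at 24.5 CPM in the male P7 replicate 1 and at 19.9 CPM in the male P10 replicate 3, beside 164 to 283 CPM in the female libraries and 0.0282 to 4.03 CPM in the other males. With both of these libraries left out, 34 genes were called, 26 of them among the 49.

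Markers of other cells moved between the ages as well. Those of border macrophages summed to 522.5 to 611.4 CPM at P7 and 314 to 355.1 at P10, with 0 of 13 tested markers called. Within this list Mrc1, the mannose receptor, was at 233.4, 195.1 and 176.5 CPM at P7 and at 115.1, 121.6, 106.7 and 138 CPM at P10. On average Pf4 went from 18.4 to 3.66 CPM, Folr2 from 16.1 to 2.65 and Ms4a7 from 8.28 to 1.69. Each of them was without overlap (edgeR adjusted p = 0.117 to 0.551). Stab1 went from 251.8 to 166.1 CPM and Ednrb from 30.1 to 27.2. Only Mgl2 had a higher mean at P10 (0.720 and 0.795 CPM). Neuronal markers summed to 22.2 to 52.1 CPM at P7 and to 5.94 to 14.1 at P10 with 0 of 15 called, and granule cell markers to 25.3 to 42.9 and 19.0 to 26.1 CPM with 1 of 13 called. That gene was Barhl1, a homeobox transcription factor of granule cells and their progenitors, at 1.32, 1.41 and 0.65 CPM at P7 and without a read at P10. Most of the granule cell sum at P10 was Etv1, at 12.6 CPM on average at P7 and 19.1 at P10. Neurod1 went from 9.01 to 1.81 CPM, Pax6 from 2.10 to 0.271 and Reln from 1.66 to 0.0490. Gabra6 (0.337 and 0.477 CPM) and Cbln3 (0.0775 and 0.151 CPM) also had a higher mean at P10, and the rest a lower one. Monocyte markers summed to 55.7 to 80.6 CPM at P7 and 50.7 to 64.8 at P10, and oligodendrocyte markers to 185.2 to 337.6 and 234.3 to 262.8 CPM. Endothelial markers summed to 43.5 to 59.1 CPM at P7 and 66.6 to 92.9 at P10, without overlap and with 0 of 9 tested markers called. Most of this sum was Pecam1, at 33.9 CPM on average at P7 and 63.1 at P10 (edgeR adjusted p = 0.189). Cldn5, Slco1a4 and Emcn, which define these cells, had no read in the 7 libraries. Cdh5 (2.10 CPM on average at P7 and 1.97 at P10) and Kdr (3.77 and 3.34 CPM) had reads. Lymphocyte markers summed to 745.5 to 754.8 CPM and 668.2 to 720.3 CPM, also without overlap, with Cd3d, Cd3g and Cd8a without a read. The ranges of Purkinje cell (19.6 to 25.2 and 22.6 to 30.1 CPM), astrocyte (103.1 to 159.6 and 126.9 to 180.5 CPM), pericyte (0.697 to 2.85 and 0.740 to 2.44 CPM) and neutrophil markers (1.44 to 2.52 and 0.105 to 4.58 CPM) overlapped. Red cell markers summed to 38.6 to 112 CPM at P7 and 136 to 160 at P10. The sum of genes known to respond to tissue dissociation was 638 to 719 CPM at P7 and 887 to 968 at P10, and of its 17 genes only Jun, an early response transcription factor, rose among those tested (112.1, 88.0 and 106.1 to 208.2, 165.7, 188.6 and 183.3 CPM, log2 fold change 0.87, edgeR adjusted p = 0.000138). In bulk libraries, fewer cells of a kind and less RNA per cell cannot be told apart. The part of these other cells in the changes below was not tested.

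**Figure D2:**
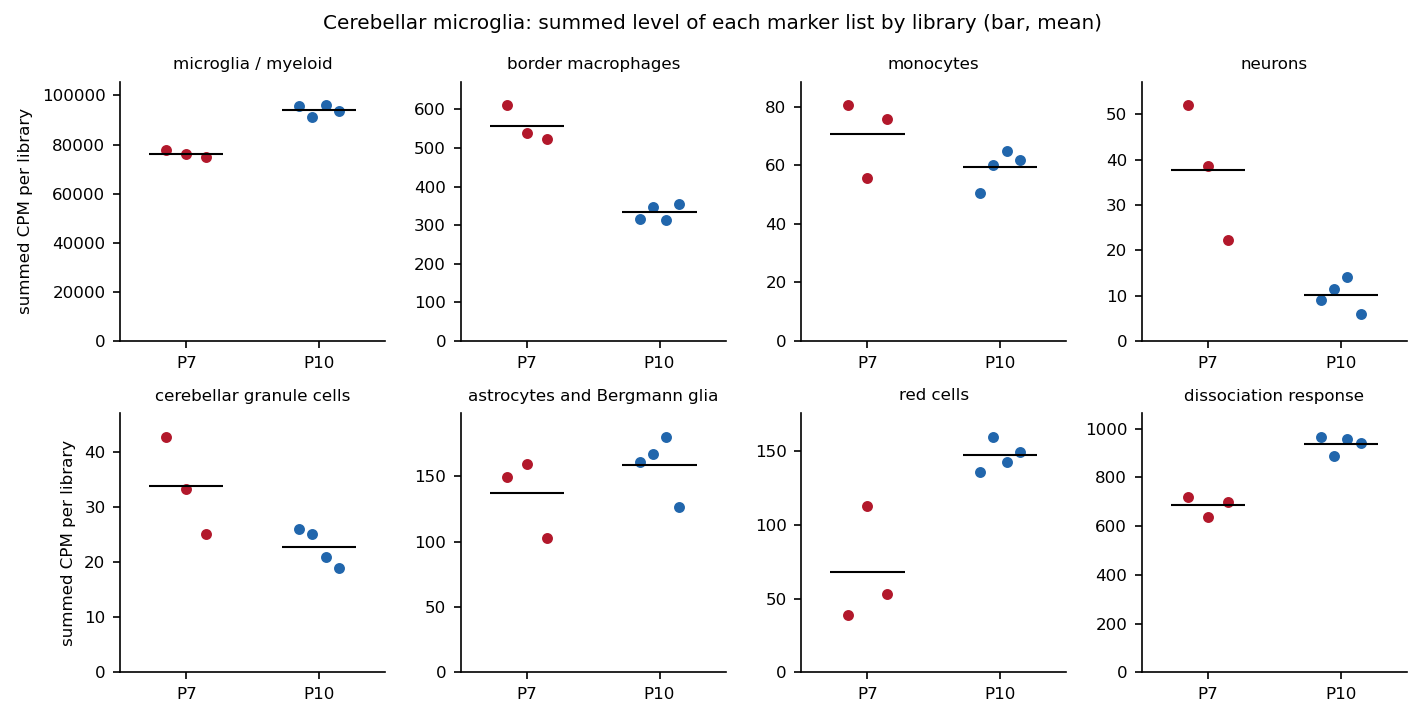
Summed CPM of 8 marker lists in each cerebellar library at P7 (red) and P10 (blue), with the mean as a bar and axes that start at 0. Microglial and dissociation markers were higher and border macrophage and neuronal markers lower in each P10 library than in each P7 library.

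Among the 12 priming genes that the study names, 5 were called, all of them lower at P10, and the others did not pass the limit on p. The log2 fold changes of the 12 ran from -4.27 to -0.24 with a median of -1.56. The study presents them as known priming genes and shows them for these same libraries, and they were listed here with that known, so their direction is no independent evidence. By antibody staining the study saw no CLEC7A and no CD206, the protein of Mrc1, in Cb white matter microglia at P7, P10 or P42. SPP1 it saw there only at P7, in single cells or patches. The levels given here are of RNA in sorted cells, a different measure. Spp1, which encodes the secreted phosphoprotein osteopontin (chromosome 5, 104435118 to 104441050 of GRCm38, plus strand), was at 2825, 3814 and 6227 CPM at P7. At P10 it was at 201.6, 261.7, 324 and 102 CPM, so that the lowest P7 library lay far above the highest of P10. Its log2 fold change was -4.27 (standard error 0.70, edgeR adjusted p = 0.000441), or 19.3-fold by the model. With limma-voom its adjusted p was 0.0364 and the call was lost. Gpnmb, a transmembrane glycoprotein of phagocytes (chromosome 6, 49036546 to 49070929), was at 141.2, 237.7 and 285.1 CPM at P7 and at 17.5, 14.5, 16.8 and 5.84 CPM at P10. It fell by 4.02 on the log2 scale (standard error 0.79, edgeR adjusted p = 0.00264), a call that was lost in 9 of 18 alternative fits, DESeq2 among them (adjusted p = 0.0156).

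The bases just before the transcription start of genes that moved together are shown to let their promoters be set side by side. From the promoter sequences of RefSeq (GRCm38.p6), 32 of the 49 called genes had an entry by symbol, and 23 had a start within 50 bases of the first base in the deposited table (17 that fell and 6 that rose). Shown are the 250 bases before the start of the 2 genes with the largest decrease and the 2 with the largest increase among those at 10 CPM or more whose window holds no deposited exon of the gene, each 5′ to 3′ on the gene's strand. They are chr5:104434861-104435110 for Spp1 (plus strand), chr6:49036268-49036517 for Gpnmb (plus strand), chr17:67354460-67354709 for Ptprm (minus strand) and chr2:180455995-180456244 for Slco4a1 (plus strand). Capitals mark matches on either strand to 6 motifs. These were CACGTG (the palindromic E-box), TCATGTG (an M-box of the MITF family), TGANTCA (wider than the AP-1 site, as any middle base was taken), GAGGAAGT (the form favoured by PU.1), CCAAT (the CCAAT box) and TATAAA (the TATA box), and none contains another.
Spp1: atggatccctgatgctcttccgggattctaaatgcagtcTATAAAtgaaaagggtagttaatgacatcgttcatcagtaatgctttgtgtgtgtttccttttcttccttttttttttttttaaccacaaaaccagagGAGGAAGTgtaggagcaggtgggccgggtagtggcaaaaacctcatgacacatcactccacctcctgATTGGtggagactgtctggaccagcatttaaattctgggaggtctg
Gpnmb: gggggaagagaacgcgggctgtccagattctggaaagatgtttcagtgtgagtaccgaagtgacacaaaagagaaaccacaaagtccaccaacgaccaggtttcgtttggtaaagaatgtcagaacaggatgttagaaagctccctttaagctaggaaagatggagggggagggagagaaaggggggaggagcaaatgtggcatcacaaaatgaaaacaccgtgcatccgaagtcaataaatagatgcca
Ptprm: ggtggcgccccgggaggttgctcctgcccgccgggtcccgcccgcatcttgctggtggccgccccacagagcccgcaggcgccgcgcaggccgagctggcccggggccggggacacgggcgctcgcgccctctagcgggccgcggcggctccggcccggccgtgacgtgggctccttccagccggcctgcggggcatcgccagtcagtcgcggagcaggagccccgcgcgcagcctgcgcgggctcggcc
Slco4a1: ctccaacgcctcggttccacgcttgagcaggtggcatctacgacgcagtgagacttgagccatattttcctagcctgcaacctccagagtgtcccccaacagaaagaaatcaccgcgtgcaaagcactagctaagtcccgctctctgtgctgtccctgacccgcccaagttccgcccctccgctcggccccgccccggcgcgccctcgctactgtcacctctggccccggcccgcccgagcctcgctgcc
The window of Spp1 held the PU.1 form, the CCAAT box and the TATA box, and none of the 6 motifs was found in the other 3. Its GC content was 43.6% with 3 CpG dinucleotides, and that of Gpnmb 47.2% with 7. The windows of the genes that rose had 81.2% with 37 CpG (Ptprm) and 64.8% with 21 (Slco4a1). Over the 17 windows of genes that fell the median GC content was 51.2% and over the 6 of genes that rose it was 64.8%, beside 59.2% over the 12092 tested genes with an entry and 52.0% over all 27025 promoters. Motif shares are given for the same backgrounds, the tested genes first and all promoters second. GAGGAAGT was held by 2 of 17 windows of genes that fell (Nceh1 and Spp1) and by 2.47% and 2.44% of promoters of the same length. CCAAT was held by 8 of 17 beside 35.9% and 34.5%, and TATAAA by 2 of 17 (Ifitm2 and Spp1) beside 6.9% and 13.0%. TGANTCA was held by 1 of 17 beside 4.46% and 6.87%, CACGTG by 1 of 17 beside 7.95% and 6.05%, and TCATGTG by 0 of 17 beside 1.94% and 3.22%. Of the 6 windows of genes that rose, 2 held CCAAT and none held another of these motifs. A match is only a run of letters in this window.

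The remaining called priming genes were Igf1, Clec7a and Anxa5. Igf1, insulin-like growth factor 1, which supports the survival of neurons and the formation of myelin (chromosome 10, 87858265 to 87937042), was at 154.2, 173.2 and 197.4 CPM at P7 and at 39.7, 40.5, 55.3 and 25.0 CPM at P10. It fell by 2.12 on the log2 scale (standard error 0.45, edgeR adjusted p = 0.00571), and was called in 8 of 18 alternative fits. Clec7a, the β-glucan receptor dectin-1 (chromosome 6, 129461591 to 129472779), was at 136.9, 131.1 and 155.3 CPM and then at 66.9, 55.1, 70.7 and 44.9 CPM, a log2 fold change of -1.25 (edgeR adjusted p = 0.00421), called in 11 of 18 alternatives. Anxa5, annexin A5, which binds the phosphatidylserine that dying cells expose (chromosome 3, 36448923 to 36475894), was at 183.7, 196.9 and 251.2 CPM at P7 and at 61.0, 65.2, 65.4 and 41.1 CPM at P10. Its change of -1.86 (standard error 0.20, edgeR adjusted p = 1.44e-06) was called in all 18 alternatives.

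Of the 7 priming genes that were not called, Lgals3 (galectin-3) had a change of -2.76 at an adjusted p of 0.0235 in edgeR's test, with 18.7, 27.5 and 47.0 CPM at P7 and 3.92, 3.44, 6.95 and 4.03 CPM at P10. Itgax, which encodes CD11c, stood at 26.5, 35.8 and 34.6 CPM and then at 8.80, 14.5, 8.64 and 9.84 CPM (-1.63, edgeR adjusted p = 0.0393). These libraries did not overlap either. The receptor kinase gene Axl was at 90.7 to 124.6 CPM at P7 and at 63.4 to 111.7 CPM at P10, with overlapping libraries. F13a1, a coagulation factor subunit, was at 9.81, 12.9 and 16.2 CPM and then at 6.25, 5.46, 2.18 and 4.42 CPM. It and Mrc1 (-0.74), Gas7 (-0.78) and the fatty acid receptor gene Cd36 (-1.22) had adjusted p-values of 0.536 to 0.917 in edgeR's test.

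The 5 phagocytosis genes that the study names gave 0 calls, and 1 of them fell. This was Abca1, a pump that hands cholesterol to lipoproteins, at 728.1, 738.3 and 578.8 CPM at P7 and at 345.2, 466.5, 291.3 and 318.7 CPM at P10 (log2 fold change -0.94, edgeR adjusted p = 0.00321). Gsn, which encodes the actin-severing protein gelsolin, had a change of -1.26 (22.0, 23.3 and 24.9 CPM, then 4.91, 12.6, 11.1 and 10.4 CPM) at an adjusted p of 0.121 in edgeR's test. For the scavenger receptor gene Scarb1 the change was -0.47 and for the receptor kinase gene Grk6 it was 0.13, with edgeR adjusted p-values of 0.128 and 0.97.

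**Figure D3:**
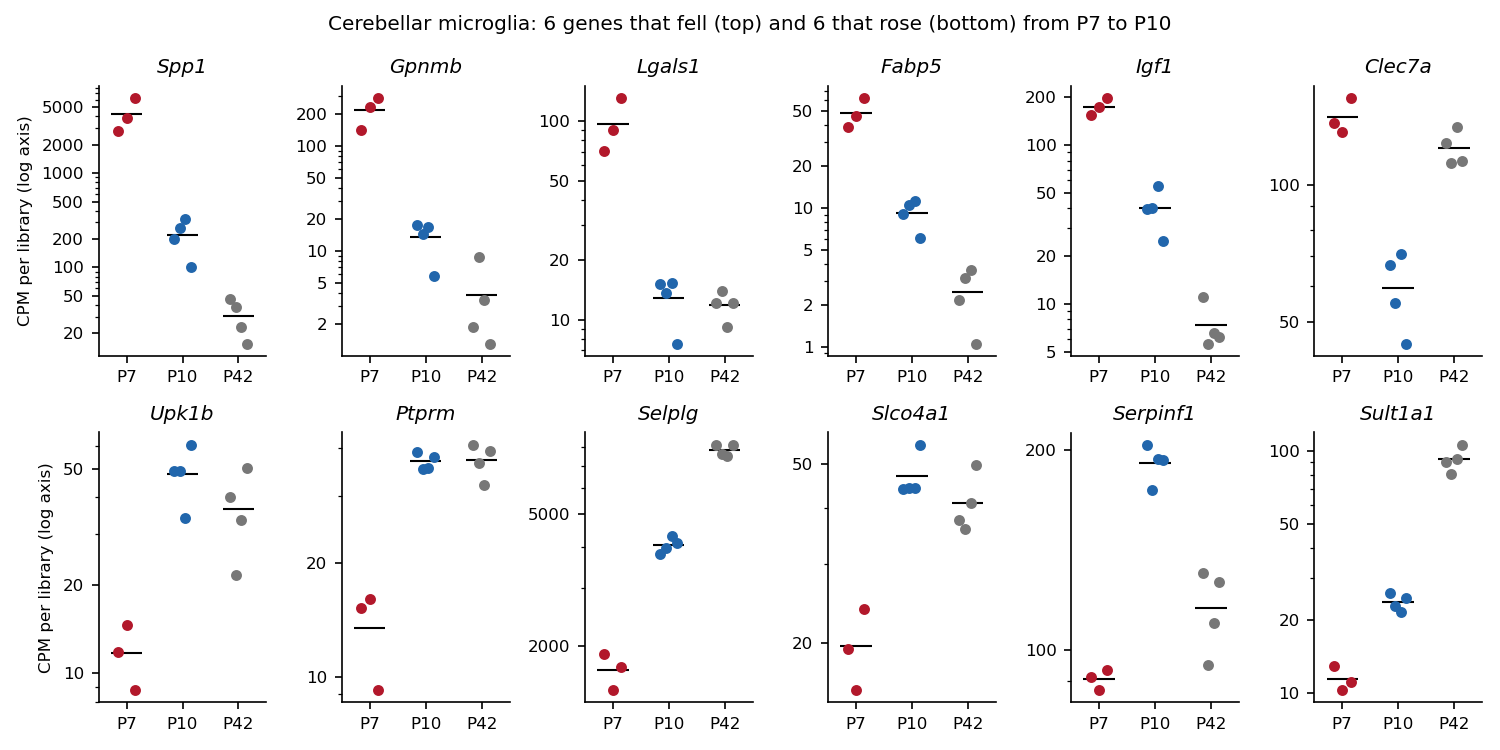
CPM of 12 called genes in each cerebellar library (log axes that differ between panels) at P7 (3 libraries, red), P10 (4, blue) and P42 (4, grey), with the group mean as a bar. In the top row every P7 library lay above every P10 library, and in the bottom row every P7 library lay below; Spp1, Gpnmb, Lgals1, Fabp5 and Igf1 had a lower mean at P42 than at P10, while that of Clec7a was higher.

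A wider list of 30 genes of the amoeboid and disease-associated state held 10 called genes, all lower at P10. At least 10 CPM at P7 or P10 was reached by 28 of the 30, and of the 8216 tested genes at that level 0.487% were called. On p alone 15 of the 30 fell and none rose, the fold change of every member was below 0, and the median was -1.14. Among them Lgals1, galectin-1, a lectin that binds β-galactosides (chromosome 15, 78926725 to 78930465), went from 70.4, 90.0 and 130.1 CPM to 15.2, 13.6, 15.3 and 7.57 CPM (log2 fold change -2.91, standard error 0.36, edgeR adjusted p = 1.27e-05). Fabp5, a carrier of fatty acids (chromosome 3, 10012548 to 10016607), went from 38.3, 46.4 and 62.0 CPM to 9.05, 10.5, 11.2 and 6.07 CPM (-2.41, edgeR adjusted p = 0.00204). P10 replicate 4 was the lowest of the 4 libraries for both, as it was for Spp1, Gpnmb, Igf1, Clec7a and Anxa5. Plin2, which coats lipid droplets (chromosome 4, 86648386 to 86670060), was at 309.1, 343.3 and 385.5 CPM and then at 121.4, 127.2, 131.3 and 101 CPM (-1.52, standard error 0.17, edgeR adjusted p = 3.97e-06). Mif, macrophage migration inhibitory factor, fell by 1.43 on the log2 scale, and Cd63, a tetraspanin of late endosomes, by 1.04. Several well known members of this list did not pass. Apoe, which encodes the main apolipoprotein of the brain, was at 12900 to 14260 CPM at P7 and at 7874 to 12050 CPM at P10 (edgeR adjusted p = 0.472). Trem2, the lipid receptor of microglia, was at 1666 to 1670 CPM and at 1375 to 1643 CPM (edgeR adjusted p = 0.593).

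Of 35 lysosomal genes, 9 fell, 2 rose and 1 was called, Cd63, and the median change was -0.25. The cysteine protease gene Ctsb had the smallest p of all genes tested, with 18060, 18700 and 19280 CPM at P7 and 9863, 10130, 10210 and 8329 CPM at P10 (log2 fold change -0.96, standard error 0.07, edgeR adjusted p = 3.41e-10). Ctsl fell by 0.69, Ctsz by 0.61 and the aspartic protease gene Ctsd by 0.44 on the log2 scale. Among those that rose was Man2b1, a lysosomal mannosidase (0.40). Genes of this paragraph other than Cd63, and the members of the lists below that passed the limit on p without being called where their list also holds a called gene, were chosen after their values were seen.

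In the list of lipid handling and efflux 6 of 27 tested genes fell and none rose, with a median of -0.47. Beside Fabp5, Plin2 and Abca1 these were Lpl, lipoprotein lipase (-0.98, edgeR adjusted p = 0.00237), Soat1, which esterifies cholesterol (-0.53), and the lysosomal lipase gene Lipa (-0.47). Cholesterol synthesis and uptake gave no gene at the limit on p among 23, with a median of 0.07. Its members with the highest levels were Ebp (-0.17), Msmo1 (0.39) and Cyp51 (0.51), with edgeR adjusted p-values of 0.421 to 0.589.

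Of 22 genes of glycolysis and hypoxia tested, 7 fell, none rose, none reached the fold limit and the median was -0.62. Tpi1, triosephosphate isomerase, was at 262.6, 299.2 and 320 CPM at P7 and at 140.5, 163, 186.6 and 147 CPM at P10 (-0.88, edgeR adjusted p = 0.000145). Ldha, the A subunit of lactate dehydrogenase, went from 456.2, 475.6 and 623.1 CPM to 268.4, 288.5, 311.5 and 274.2 CPM (-0.86, edgeR adjusted p = 6.95e-05), and Pkm, pyruvate kinase, from 454.6 to 581.8 CPM to 266.1 to 314.8 CPM (-0.80). The lactate carrier gene Slc16a3 (-0.88), Gpi1 (-0.68), Aldoa (-0.66) and Eno1 (-0.58) made up the rest.

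**Figure D4:**
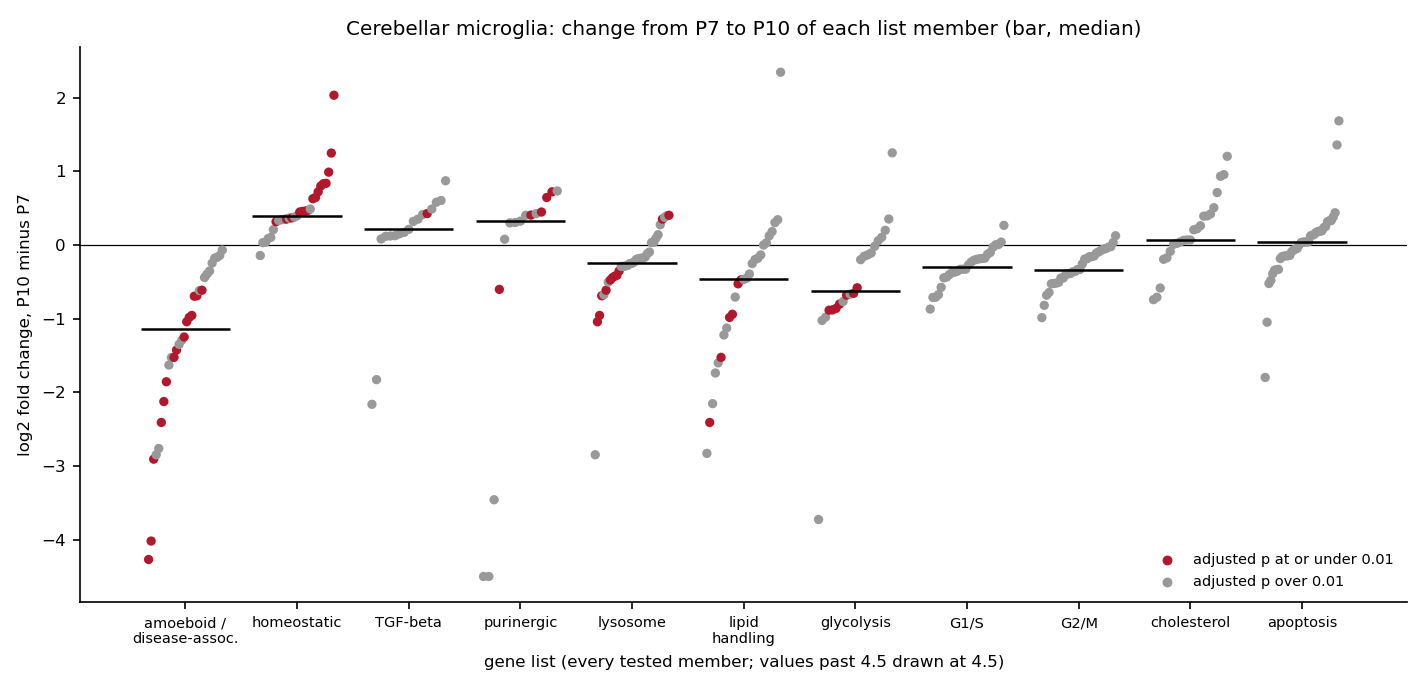
Log2 fold change from P7 to P10 (vertical axis, P10 minus P7) of every tested member of 11 gene lists in cerebellar microglia; red, adjusted p at or under 0.01; grey, above it; bars, list medians; the 2 values more than 4.5 from 0 are drawn at that limit. All members of the amoeboid list lie below 0 and 28 of the 29 homeostatic genes lie above it.

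Of the 29 homeostatic genes tested, 16 rose, none fell, 2 were called and the median was 0.40. Over all genes tested 0.502% rose, 0.875% fell and 0.234% were called, and these shares also stand beside the other lists. All 29 reached at least 10 CPM at P7 or P10, a level at which 0.487% of genes tested were called. The share that passed on p alone was not taken at that level. Selplg, the P-selectin ligand PSGL-1 (chromosome 5, 113818536 to 113832644, minus strand), was at 1898, 1476 and 1732 CPM at P7 and at 3801, 3962, 4311 and 4112 CPM at P10 (log2 fold change 1.25, standard error 0.09, edgeR adjusted p = 9.18e-10). Its call held in all 18 alternatives. Upk1b, a uroplakin of the tetraspanin family (chromosome 16, 38773184 to 38800203), rose from 11.9, 14.7 and 8.76 CPM to 49.2, 49.0, 34.0 and 60.4 CPM (2.03, standard error 0.37, edgeR adjusted p = 0.00121), the largest increase among genes at 10 CPM or more. Tmem119, a membrane protein used to tell microglia from other macrophages, lay just under the fold limit at 0.99 (2184, 1634 and 1924 CPM, then 3656, 3615, 3758 and 4180 CPM, edgeR adjusted p = 1.54e-06). The fructose carrier gene Slc2a5 (0.83), the small GTPase gene Rhob (0.84), the adhesion receptor gene Adgrg1 (0.80) and Sparc, a secreted matrix protein (0.63), rose as well. Cx3cr1, the fractalkine receptor, rose by 0.32 on the log2 scale. Sall1, a zinc finger factor that maintains microglial identity, was at 292.1 to 330.3 CPM and at 368.3 to 421.4 CPM without passing the limit (0.37, edgeR adjusted p = 0.0334).

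Among 15 tested purinergic receptors and ectonucleotidases 4 rose and 1 fell. P2ry12, the ADP receptor that directs microglial processes to injury, went from 7281, 7181 and 6743 CPM to 12080, 11240, 11670 and 11690 CPM (log2 fold change 0.72, standard error 0.10, edgeR adjusted p = 3.32e-05). Its neighbour P2ry13 (0.65), the ATP-cleaving enzyme gene Entpd1 (0.41) and the adenosine receptor gene Adora3 (0.45) also rose, while the ATP-gated channel gene P2rx4 fell by 0.60 on the log2 scale. Of 17 genes of TGF-β signalling, 15 had a change above 0, with a median of 0.21, but only Nrros, which holds latent TGF-β1 on the microglial surface, passed the limit (0.43, edgeR adjusted p = 0.00437). The receptor genes Tgfbr1 (0.49) and Tgfbr2 (0.21) had edgeR adjusted p-values of 0.0262 and 0.244.

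Phagocytic receptors were divided. Of 40 genes, 3 rose, 2 fell and the median was -0.16. The integrin genes Itgam (0.65), Itgb2 (0.54) and Itgb5 (0.49) rose. Itgam and Itgb2 together form complement receptor 3, and Itgam encodes CD11b, by which the cells were sorted. It was at 1289, 1182 and 1262 CPM at P7 and at 1893, 2070, 1801 and 2060 CPM at P10 (edgeR adjusted p = 0.00128). The 2 that fell were Clec7a and Abca1. Complement genes gave no call among 15 tested. The C1q genes did not pass, with changes of 0.09 for C1qa, 0.05 for C1qb and 0.03 for C1qc, the latter 2 below 0 with limma-voom, while the C5a receptor gene C5ar2 rose (0.80) beside Itgam and Itgb2, and the C3a receptor gene C3ar1 fell by 0.54 on the log2 scale.

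Among 33 tested growth factors and cytokines the called genes were Spp1, Igf1 and Mif, all lower, and Pdgfb rose (0.65, edgeR adjusted p = 0.00599). Of 31 chemokines and receptors, Ccl6, a CC chemokine of macrophages, was the only call. It was at 696.9, 668 and 647.3 CPM at P7 and at 353.7, 330.1, 337.8 and 307.2 CPM at P10, and its change of -1.01 lay so close to the fold limit that 11 of 18 alternatives lost the call. In adhesion, matrix and proteases 3 of 35 rose, the integrin genes named above, and 2 fell, the tetraspanin gene Cd9 (-0.69) and the heparan sulfate proteoglycan gene Sdc4, which went from 98.9, 111.2 and 80.3 CPM to 47.8, 44.8, 56.3 and 45.0 CPM and lay just short of the fold limit. Of 38 transcription factors tested 2 rose, among them Nfkb1, a subunit of NF-κB (0.61), while Mef2c (0.10) and Irf8 (0.12), factors of microglial identity, did not pass.

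Cell division and cell death gave no gene at the limit on p. In the list of DNA replication and G1/S 24 of 28 genes had a change below 0 (median -0.30), and in that of mitosis and G2/M 30 of 32 (median -0.33), beside -0.03 over all genes tested. The helicase subunit genes Mcm6 (-0.13) and Mcm3 (0.00) and the ribonucleotide reductase gene Rrm1 (-0.33), of the G1/S list, did not pass. Ccna2, which encodes cyclin A2, was at 107.4, 81.7 and 86.5 CPM at P7 and at 64.0, 71.0, 51.5 and 68.7 CPM at P10, without overlap (-0.53, edgeR adjusted p = 0.7). Cdk1, the kinase that drives mitosis, was at 116.5 to 133.1 CPM at P7 and at 83.6 to 108.9 CPM at P10 (-0.39, edgeR adjusted p = 0.893), and its mean at P42 was 2.65 CPM. Top2a, a topoisomerase of dividing cells, was at 130.4 to 180.4 CPM at P7 and at 107.3 to 162.7 CPM at P10, with overlapping libraries, and at 0.746 CPM at P42. Of 40 apoptosis genes none passed and the median was 0.04. Casp8 (0.24), Mcl1 (0.17) and Tnfrsf1a (0.04) had the highest levels among them. The interferon response held 1 gene at the limit, Bst2, which tethers viruses to the membrane (fell by 0.58), of 36. Slfn2 (-0.20) and the interferon signalling factor gene Irf9 (0.19) did not pass. In antigen presentation 1 of 16 rose, H2-DMa, which helps load peptides on class II molecules (0.57), while the class I genes B2m (-0.14) and H2-D1 (-0.10), each above 0 in 1 alternative, and the peptide loading gene Tapbp (0.19) did not pass.

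Several called genes stood outside these lists. Cybb, which encodes the large subunit of the phagocyte NADPH oxidase (chromosome X, 9435252 to 9487771), was at 10.1, 24.6 and 14.8 CPM at P7 and at 1.59, 3.52, 1.54 and 1.24 CPM at P10 (log2 fold change -3.05, standard error 0.67, edgeR adjusted p = 0.0074), and was called in 8 of 18 alternatives. Dab2, an endocytic adaptor (-1.32), Nceh1, a cholesteryl ester hydrolase (-1.26), Cstb, an inhibitor of cathepsins (-1.13), Mt1, a metallothionein (-1.23), Ftl1, the light chain of ferritin (-1.07), and Psat1, an enzyme of serine synthesis (-1.06), were lower at P10. S100a1 (-1.60) and S100a13 (-1.17), small calcium-binding proteins encoded next to each other on chromosome 3, fell, as did Ifitm2 (-1.99), Crip1 (-1.73), Tmem205 (-1.55) and Fxyd5 (27.1, 35.4 and 51.5 CPM, then 12.0, 14.2, 16.1 and 11.3 CPM).

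Of the 13 called genes that rose, Ptprm, a receptor phosphatase of cell contacts (chromosome 17, 66666848 to 67354459), went from 15.2, 16.0 and 9.23 CPM to 39.2, 35.2, 35.4 and 37.8 CPM (log2 fold change 1.45, edgeR adjusted p = 0.00608). Slco4a1, an organic anion carrier, went from 19.5, 15.8 and 23.9 CPM to 44.0, 44.1, 44.3 and 55.1 CPM (1.25). Serpinf1, which encodes the secreted serpin PEDF, rose from 91.1, 87.2 and 93.5 CPM to 203.4, 173.8, 193.4 and 193.3 CPM (1.08, standard error 0.15, edgeR adjusted p = 4.55e-05), and Sult1a1, a sulfotransferase, from 12.9, 10.3 and 11.1 CPM to 26.0, 22.9, 21.7 and 24.9 CPM (1.06). Sgk1, a kinase induced by glucocorticoids, was at 395.9, 384 and 505 CPM and then at 801.8, 936.5, 883.5 and 840.2 CPM (1.01, edgeR adjusted p = 2.03e-05). Lrba (1.26), Efnb1, an ephrin (1.13), Khdrbs3 (1.04) and Lrrc3 (1.02) completed the genes at 10 CPM or more.

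The level at P42 was set beside these changes. Of the 36 called genes that fell, 19 had a lower mean at P42 than at P10, 13 lay between the P10 and the P7 mean, and 2 lay above P7. The remaining 2, mt-Nd3 and Rgsl1, had no read at P10 or P42. Spp1 (31.0 ± 14.0 CPM, SD, n = 4) and Igf1 (7.39 CPM on average) were lower still, while Cybb (19.1 ± 6.48 CPM, SD, n = 4) and Malat1 (1788 ± 435 CPM, SD, n = 4) were back above their P7 means of 16.5 and 1495 CPM. Clec7a stood at 121 ± 10.3 CPM (SD, n = 4), between P10 and P7. Of the 13 called genes that rose, 7 were higher at P42 than at P10 and 6 lay between P7 and P10. Selplg reached 7837 ± 304 CPM (SD, n = 4), and Sult1a1 92.7 ± 10.6 CPM (SD, n = 4).

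The same interval was compared in the other regions, whose libraries are not shared with the Cb. Same-numbered libraries of an age had the same labelled sex in all regions, and the labels do not say whether they came from the same mice. Likeness between regions may therefore not be independent. Between P10 and P7, 196 genes (0.937%) were called in the CC and 94 (0.449%) in the Cx. Of the 49 genes called in the Cb, 33 were also called in the CC in the same direction (67.3% of the Cb calls and 16.8% of those of the CC), and 22 in the Cx (44.9% and 23.4%). The sign was the same for 47 of 49 in the CC, with Malat1 and Barhl1 as the exceptions, and for 49 of 49 in the Cx. On p alone, 587 genes passed in the CC (2.81%), of which 244 rose (1.17%) and 343 fell (1.64%), and 600 passed in the Cx (2.87%), of which 297 rose (1.42%). Of the calls in the Cx, 52 were higher at P10 (0.249%). Spp1 changed by -5.49 in the CC (8529 ± 2597 CPM, SD, n = 3, to 190.1 ± 210.6 CPM, SD, n = 4). In the Cx it changed by -0.20, from 88.6 ± 8.99 CPM (SD, n = 3) to 76.9 ± 12.3 CPM (SD, n = 4). The difference of its change between the Cb and Cx was -4.06 (standard error 0.96) and did not pass (edgeR adjusted p = 0.118). For Gpnmb the changes were -7.38 in the CC and -4.18 in the Cx, where it was at 4.52 ± 2.77 CPM (SD, n = 3) at P7, and for Igf1 they were -2.26 and -0.65. Selplg rose by 2.00 in the CC and 1.55 in the Cx, and its smaller increase in the Cb than in the CC had a difference of -0.75 (standard error 0.13, edgeR adjusted p = 0.00785), short of the fold limit.

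**Figure D5:**
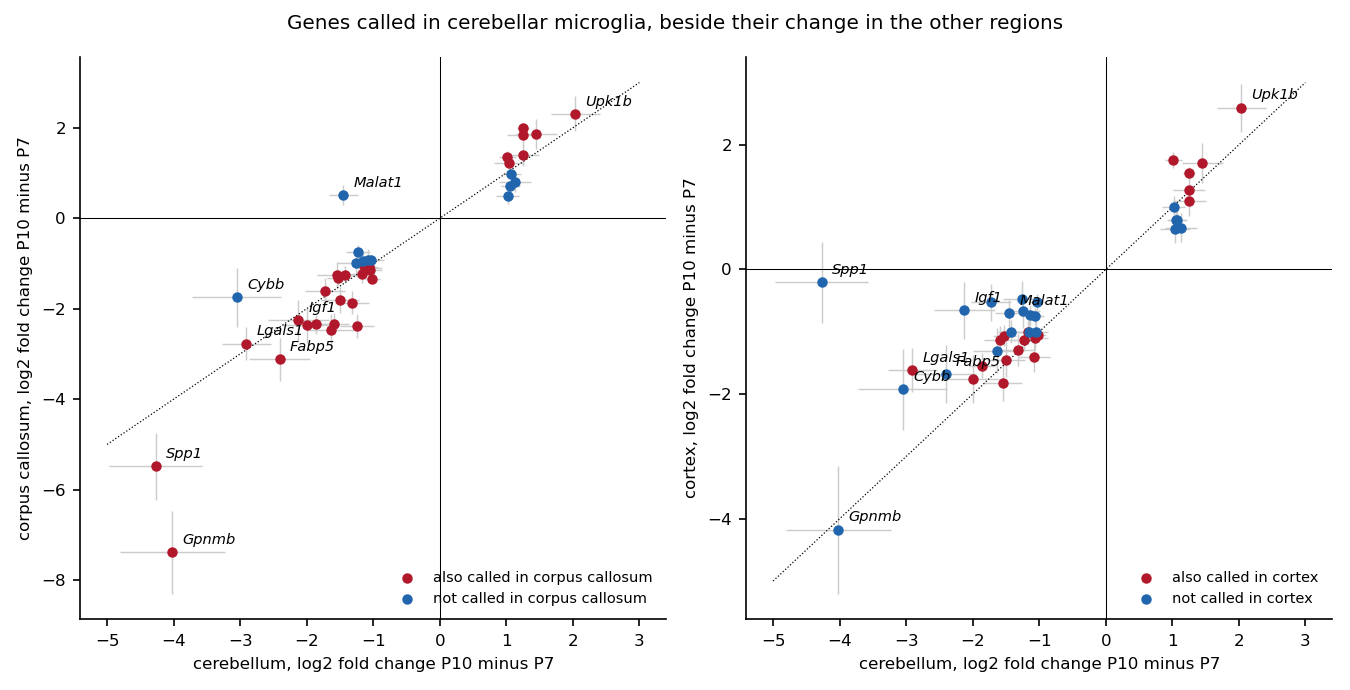
Log2 fold changes from P7 to P10 (P10 minus P7) of the called genes with at least 10 CPM in cerebellar microglia (horizontal axes) beside those in the corpus callosum (left) and cortex (right); red, also called there; blue, not called there; bars, standard errors; dotted line, equal change. Spp1 lies at -4.27 in the cerebellum and -0.20 in the cortex, and Malat1 at -1.45 in the cerebellum and 0.51 in the corpus callosum.

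A test of the difference itself called 2 genes between the changes in the Cb and CC (0.00956%) and 0 between those in the Cb and Cx, where 1153 genes had an unadjusted p under 0.05 and limma-voom called 4 and DESeq2 30. For the difference between the Cb and CC limma-voom called 13 genes, 1 of them among the 2, and DESeq2 71, both among them. With edgeR, 0 genes were called without Cb P10 replicate 3, without CC P7 replicate 3 and in a fit of the compared groups alone, and 1 gene was called without Cb P7 replicate 1 or 2, Cb P10 replicate 2 or CC P7 replicate 1 or 2. On p alone, 8 genes passed between the Cb and CC (0.0382%), 3 with a higher (0.0143%) and 5 with a lower change in the Cb (0.0239%), and 9 passed between the Cb and Cx (0.043%), all with a lower change in the Cb. Of the 2 called genes, the first was Malat1, a long nuclear RNA (chromosome 19, 5795690 to 5802672). In the Cb it went from 1492, 1803 and 1191 CPM to 625.1, 522.2, 481.9 and 557.6 CPM (log2 fold change -1.45, standard error 0.22, edgeR adjusted p = 0.000116), and in the CC from 693.9 ± 101.3 CPM (SD, n = 3) to 989.1 ± 213.5 CPM (SD, n = 4, change 0.51). Its difference was -1.96 (standard error 0.31, edgeR adjusted p = 0.00449). The second was Gm44545, an unclassified transcript model on the strand opposite to P2ry6 (chromosome 7, 100950817 to 100951562). It was at 5.50, 6.23 and 5.25 CPM and then at 8.31, 6.35, 5.94 and 7.72 CPM in the Cb (0.32, edgeR adjusted p = 0.767), and at 2.00 ± 0.54 (SD, n = 3) and 18.0 ± 0.895 CPM (SD, n = 4) in the CC. It lies within P2ry6, and no exon of P2ry6 overlapped an exon of another gene in the deposited annotation. The strand setting of the counting is not stated, so unspliced reads of P2ry6 may be among those counted for Gm44545.

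Small RNAs and a pair of near-identical sequences made up much of the rest of the called genes. The 7S RNA gene copy Rn7s6 was at 2.79, 7.72 and 1.74 CPM at P7 and at 0.137, 0.140, 0.0873 and 0.232 CPM at P10, and the short models Gm26461, Gm22567 and AC122546.1 were also called lower. All 4 had their highest level in P7 replicate 2, the library with the most Malat1. The mitochondrial gene mt-Nd3, a subunit of complex I, had 3.23, 5.81 and 3.82 CPM at P7 and no read at P10, at least 57.3-fold less when 3 counts per library are taken as the limit. Gm28438, an unprocessed pseudogene (chromosome 1, 24612775 to 24613119), was at 0.0774, 0.0564 and 0.0260 CPM at P7 and at 2.52, 3.30, 2.82 and 3.05 CPM at P10, at least 36.5-fold more. Their first 40 bases in the GENCODE transcripts of GRCm38 are shown because the 2 differ there by T3C (mt-Nd3 base first, counted from base 1 of the transcript, in capitals).
mt-Nd3: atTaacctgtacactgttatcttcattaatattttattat
Gm28438: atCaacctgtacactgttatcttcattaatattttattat
The other 344 of 345 aligned bases were identical, and 312 runs of 31 bases occurred in both, of 318 in mt-Nd3. Reads that map to several places were discarded by the authors, so that both counts rest on few reads. In all regions together mt-Nd3 had reads in 9 of 9 P7 libraries and in 0 of 24 libraries of P10 and P42, while Gm28438 had at most 3 reads in a P7 library and 55 to 189 in each later one. The sources used here do not say whether libraries of all ages were aligned and counted with the same settings and annotation. They also do not say whether mice of all ages were of the same line or had the same mitochondrial base at T3C. A difference between P7 and the later ages in the processing or in the mouse line cannot be told apart from age. This holds for every comparison of P7 with P10, and the part of either in them was not tested.

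The called genes that fell had short transcripts, with a median exon length of 1712.5 bases beside 3452 for those that rose and 2992 for all tested. When the more highly expressed genes (10 CPM or above) were split by exon length into 4 groups of like size, the 1991 shortest (57 to 2728 bases) had a median change of -0.14 and the other groups of 0.03 to 0.07. The part of exon length in the changes was not tested. With a trend on length removed, which was added after the data were seen, 43 genes were called, 14 higher and 29 lower.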

How the data were processed

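Bulk RNA sequencing of sorted mouse microglia gave 33 libraries in 9 groups by region and age. The deposited values are read counts per gene. The authors made them with CASAVA 1.8.2, STAR 2.5.2b on GRCm38 and featureCounts 1.6.2, discarding reads that map to several places or overlap several genes; the strand setting is not given in the sources used here, so overlapping and antisense genes are uncertain. All 33 count columns were matched to a sample.

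From 48587 genes, with 92 spike-in sequences left out, 17212 without reads and the 10458 with the lowest summed counts were removed, which left 20917. Counts were tested with edgeR 4.0.16 (R 4.3.3; TMM factors, robust quasi-likelihood fit of all libraries, 1 coefficient per group, Benjamini-Hochberg adjustment), and differences between regions as contrasts of changes. P-values measure the spread between libraries. Alternatives were limma-voom (limma 3.58.1), DESeq2 1.42.0, other scaling factors, filters, covariates and samples, and each library left out. A length trend, a fit of P7 and P10 libraries only, and leaving out both male libraries with Xist reads were chosen after seeing the data.

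Members and gene lists were chosen with earlier results of these data known. Named were the priming and phagocytosis genes of the study, up to 15 called genes per direction with the largest change (non-overlapping libraries, 10 CPM or more, no predicted genes), per list up to 4 called genes per direction or, with none called, up to 3 with the highest level, and genes called between regions. Genes outside this rule were chosen after their values were seen. Promoter sequences were from RefSeq and transcripts from GENCODE. Some genes that the rule would name are not reported here.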

Additional observations from a re-analysis of the deposited data

Results flagged for a closer look

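In the P10 group of 4 libraries, 1 library stood apart from the other 3 by Dixon's ratio, its gap to the nearest other library divided by the range, past the critical value for 5 of 93 levels examined; chance gives such a flag for about 1 in 20 groups. For Slco4a1 the ratio was 0.977, with replicate 4 at 55.1 CPM and the others at 44.0 to 44.3 CPM. Ebp had a ratio of 0.865, with replicate 1 at 106 CPM below 116.9 to 118.6 CPM. Cybb had a ratio of 0.846, with replicate 2 at 3.52 CPM above 1.24 to 1.59 CPM. Lgals3 had a ratio of 0.832, with replicate 3 at 6.95 CPM above 3.44 to 4.03 CPM. For Lrrc3 it was 0.83, with replicate 3 at 63.6 CPM below 84.5 to 88.7 CPM.

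The change from P7 to P10 differed between the Cb and CC for 2 genes in edgeR's test of the difference. For Malat1 the difference of the log2 fold changes was -1.96, with a fall in the Cb and none called in the CC. For Gm44545 it was -2.86, with an increase called in the CC and not in the Cb.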

How the results depend on the processing

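Of the 49 genes called in the Cb, 12 were called in all 18 alternatives and 37 were lost in at least 1. limma-voom called 189 genes, 13 for the difference of the Cb and CC changes and 4 for that of the Cb and Cx. DESeq2 called 131, 71 and 30. A fit of the compared groups alone called 60, 0 and 1. Fits that each dropped a single library gave 21 to 47 calls in the Cb, with 21 without P7 replicate 2, 27 without P10 replicate 4 and 30 without P7 replicate 3, and 0 to 3 and 0 to 2 calls for the differences. With only P7 and P10 libraries 65 genes were called, and without both male libraries with Xist reads 34. The labels do not say that a number marks an animal. Libraries of P7 and P10 cannot share one, and same-numbered Cb libraries of these ages had correlations of deviations of -0.083 to -0.016. Within an age, 7 of 7 same-numbered pairs of Cb and CC were above 0 (0.044 to 0.213) and 6 of 7 Cb libraries correlated best with the CC library of their own number; for Cb and Cx it was 5 of 7 (-0.079 to 0.132) and 4 of 7. Since not every pair was over 0.1, this is a hint from the data and the samples were not treated as paired. With the replicate block 42 genes were called, 41 of them among the 49, and 2 and 0 for the differences. The sign turned for C1qb (-0.037) and C1qc (-0.0858) with limma-voom, for the log2 fold change of Mcm3, Cb P10 against P7, with the replicate block (-0.0527) and the length trend (-0.02) and, over fits without 1 library, from -0.0144 (without P7 replicate 3) to 0.0948 (without P7 replicate 1), for B2m with the length trend (0.15), and for Top2a (0.0652) and H2-D1 (0.0123) without both male libraries with Xist reads; none of these genes was called. The cause was not tested. Depth limits genes near 3 counts per library.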
